A study of Homo sapiens with 2 samples.

Results

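The chemokine, interleukin and NF-κB genes are 49 genes that encode inflammatory ligands, some of their receptors, the NF-κB subunits with their inhibitors, and a few effector genes that NF-κB is known to switch on. The genes are listed by name, and the rule sets no threshold on a measured value. They were taken by symbol from the RefSeq annotation of hg38, which holds 20037 protein-coding genes, and each was studied with its whole span plus 20 kb on both sides. These windows held 106 of the 51556 DNase I hotspots deposited for Saos-2 and 133 of the 63388 deposited for U2OS. Windows of neighbouring genes overlap and share hotspots, so the 49 genes form 44 separate loci.

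Saos-2 and U2OS are established human cell lines grown out of osteosarcoma, a malignant tumour of bone. The labels name no treatment and no added stimulus for either line. Nuclei of both were digested for 3 min at 37 °C with DNase I, which cuts DNA most readily where nucleosomes are displaced, and the fragments were amplified in 8 to 10 PCR cycles. A hotspot is a stretch in which the authors found more cuts than background at a false discovery rate of 0.05. It marks open chromatin, and it measures neither transcription nor the binding of a named factor. Each line is 1 library, so no difference below has a replicate error or a p-value, and every comparison is between these 2 libraries.

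NF-κB is a family of transcription factors that pair up from RelA, RelB, c-Rel, p50 and p52. In resting cells the pairs are held in the cytoplasm by IκB proteins. Signals from TNF, interleukin-1 or Toll-like receptors activate the IκB kinase, IκB is destroyed, and the freed pairs enter the nucleus and bind κB elements in the promoters of chemokine, cytokine and adhesion genes, and of their own inhibitors. Chemokines draw leukocytes along a gradient, and their genes lie in clusters that arose by duplication. Cells of the osteoblast lineage are a known source of interleukin-6 family cytokines and of several chemokines in bone.

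The U2OS list was longer, at 1.23 times the number of Saos-2 hotspots and 1.25 times their covered bases, and the read depth behind each is unknown. Median −log10 significance, as the authors gave it, was 4.05 for Saos-2 and 4.6 for U2OS. Among 7 genes that mark the osteoblast lineage, each had a hotspot in its window in both lines. The same held for 3 endothelial and 3 epithelial markers, and for 6 leukocyte markers in Saos-2 and 5 of them in U2OS. Over all protein-coding genes the shares were 80.9% in Saos-2 and 87.1% in U2OS. Of the osteoblast markers, RUNX2 and SPARC had a hotspot at the start in both lines. ALPL had one in Saos-2 but not U2OS and COL1A1 in U2OS but not Saos-2. Both had more covered bases in U2OS, with 1037 against 2825 bp for ALPL and 601 against 3082 bp for COL1A1. SP7, COL1A2 and IBSP had no hotspot within 1 kb of the start in either line. Where a marker's start was not in the reference table, as for SP7, COL1A1, COL1A2, SPI1 and CD3E, either end of the gene span stands for it. Of 6 leukocyte markers, SPI1, CD3E and CSF1R had a start hotspot in both lines and PTPRC, CD14 and CORO1A in neither. Of the 3 endothelial markers none had a start hotspot, and of the 3 epithelial ones KRT5 had one in U2OS. What these marker values contribute to the results below was not tested.

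The bases covered by hotspots were first compared gene by gene. A gene was counted as higher in a line when its window held at least 2-fold as many covered bases as in the other line and at least 500 bp in the higher line. By this rule 13 of the 49 genes (26.5%, 95% Wilson interval 16.2 to 40.3%) were higher in U2OS, against a background of 16.9% of all 20037 protein-coding genes. They were RELA, NFKBIE, NFKBIZ, BIRC3, IL1A, IL1RN, IL18, IL6ST, LIF, IL32, CXCL8, CCL26 and PTGS2. Another 6 genes (12.2%, interval 5.73 to 24.2%) were higher in Saos-2, against a background of 6.6%: NFKB1, NFKBIA, TNFAIP2, TNF, IL6 and VCAM1. Both shares were above the background in number, and both intervals, which cover counting error only, included it. The higher genes of both lines came from several of the role groups. Counted as loci, 14 had the call for U2OS and 5 for Saos-2. The joined windows of CXCL5 and CXCL3 had the call for U2OS although neither gene alone did. The joined windows of TNF, LTA and LTB had no call. No background was computed for loci, and the shares above are for single genes.

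Without a minimum difference, 30 genes (61.2%) had more covered bases in U2OS and 17 (34.7%) in Saos-2, close to the backgrounds of 56.5% and 33.9%. The median difference was 151 bp more in U2OS, compared with 75 bp over all protein-coding genes. Summed over the 44 loci, hotspots covered 28858 bp in the Saos-2 list and 37560 bp in the U2OS list, a ratio of 1.3 that lies near the 1.25 of the whole lists. CXCL10 and CCL5, both known as attractants of T cells, had no hotspot of either line in their windows. These 2 genes are 4.08% of the members, against a background of 9.56%. Members have shorter windows than other genes, with a median of 48.9 kb against 64.1 kb.

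**Figure D1:**
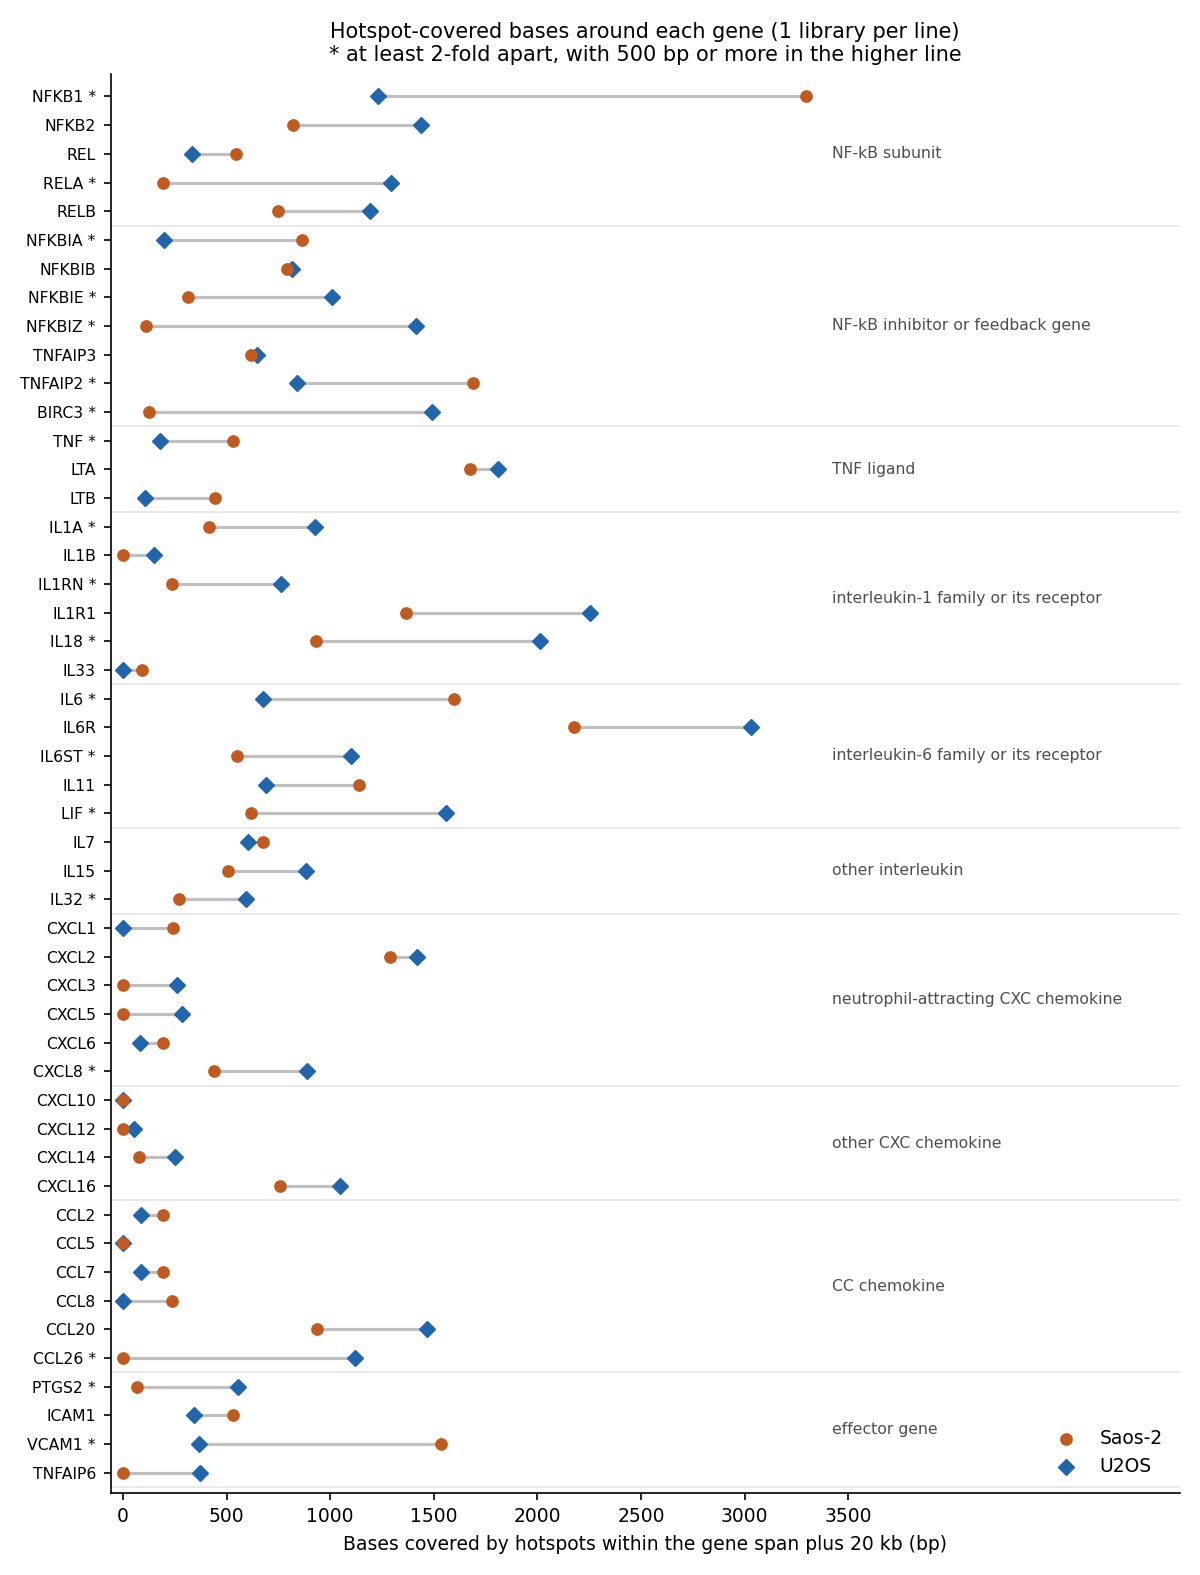
Bases covered by hotspots (x axis, bp) in the gene span plus 20 kb for each of the 49 genes, grouped by role, with Saos-2 as orange circles and U2OS as blue diamonds, 1 library each. NFKB1 shows the widest gap toward Saos-2 (3297 against 1233 bp), and BIRC3, NFKBIZ and CCL26 show wide gaps toward U2OS.

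Hotspots at the gene start were examined separately, since a window also holds enhancers and neighbours. RefSeq starts were at hand for 40 of the genes, and for the other 9 either end of the gene span was used. A hotspot within 1 kb of a start was called in both lines at 15 genes (30.6%, interval 19.5 to 44.5%, background 43.3%), in neither line at 24 (49%, background 41.8%), in U2OS but not Saos-2 at 9 (18.4%, interval 9.98 to 31.4%, background 10.1%) and in Saos-2 and not U2OS at 1 (2.04%, background 4.79%). Both intervals included their background, near the edge. The 9 were RELA, NFKBIZ, BIRC3, IL1R1, IL11, IL7, IL32, CXCL3 and CCL2, and the 1 was CXCL2. Several of these start hotspots were weak: those of IL11 and CCL2 had a significance of 1.59 and 1.44, near the lowest value of 1.3 in the lists. With the U2OS list cut to the length of the Saos-2 list, the U2OS count was 5 and the Saos-2 count 3. BIRC3, IL11, CXCL3 and CCL2 then had no start hotspot in either line, and NFKB1 and NFKBIA kept theirs in Saos-2 alone.

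**Figure D2:**
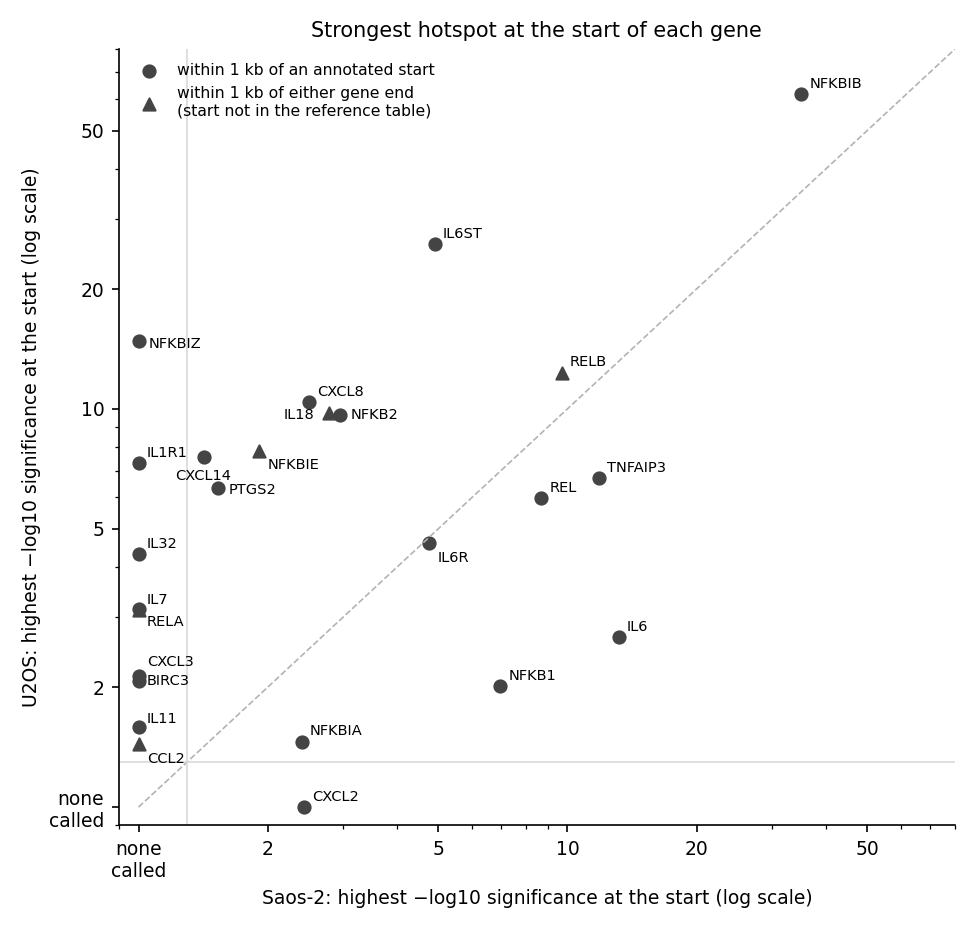
Highest −log10 significance of the hotspots within 1 kb of the start, Saos-2 on the x axis and U2OS on the y axis, both on log scales, for the 25 genes with such a hotspot in either line; "none called" marks a line without one, and the dashed line marks equal values. Of the 15 genes with a start hotspot in both lines, 9 had the higher value in U2OS and 6 in Saos-2, with IL6, NFKB1 and NFKBIA below the dashed line and NFKBIB at the top of both axes. This count was not made over all genes and has no background. Values in the whole U2OS list were also higher, with a median of 4.6 against 4.05.

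**Figure D3:**
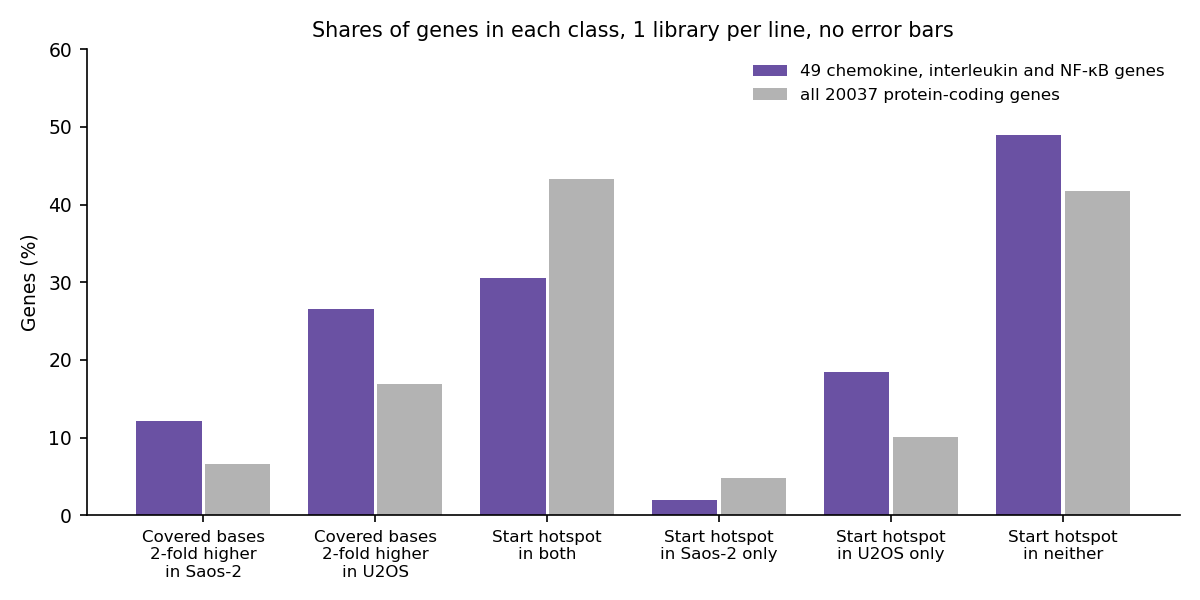
Shares of genes (y axis, %) in each class for the 49 members (purple) and all 20037 protein-coding genes (grey), with 1 library per line and no error bars. Members exceeded the background for covered bases higher in either line (26.5 against 16.9% for U2OS and 12.2 against 6.6% for Saos-2) and for a start hotspot in U2OS and not Saos-2, and lay below it for a start hotspot in both lines.

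The CXC cluster holds the 6 chemokines CXCL8, CXCL6, CXCL1, CXCL5, CXCL3 and CXCL2, which bind the receptors CXCR1 or CXCR2 and are known for attracting neutrophils. Their promoters are shown because the genes are copies of one another and because this is where the lines differed at single starts. Each line below gives the 150 bases before the first RefSeq start (GRCh38.p14, the primary assembly of hg38), 5′ to 3′ on the gene's strand. Capitals mark matches to the κB consensus and, in CXCL8, to the AP-1 element TGANTCA and the TATA box TATAAA. The stretches lie at chr4:73740419-73740568, chr4:73836528-73836677 and chr4:73869243-73869392 on the plus strand and at chr4:73998678-73998827, chr4:74038690-74038839 and chr4:74099196-74099345 on the minus strand.
CXCL8: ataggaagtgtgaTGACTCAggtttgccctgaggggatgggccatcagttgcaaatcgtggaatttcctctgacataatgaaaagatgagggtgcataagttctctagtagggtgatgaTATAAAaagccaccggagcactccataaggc
CXCL6: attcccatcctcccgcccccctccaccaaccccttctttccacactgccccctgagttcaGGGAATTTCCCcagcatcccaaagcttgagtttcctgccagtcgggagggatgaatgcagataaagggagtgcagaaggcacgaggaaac
CXCL1: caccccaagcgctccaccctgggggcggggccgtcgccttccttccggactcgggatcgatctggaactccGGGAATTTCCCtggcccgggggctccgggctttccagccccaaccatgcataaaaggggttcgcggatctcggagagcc
CXCL5: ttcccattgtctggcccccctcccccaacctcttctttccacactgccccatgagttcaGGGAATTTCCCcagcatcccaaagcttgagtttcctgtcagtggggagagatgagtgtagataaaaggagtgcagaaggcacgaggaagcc
CXCL3: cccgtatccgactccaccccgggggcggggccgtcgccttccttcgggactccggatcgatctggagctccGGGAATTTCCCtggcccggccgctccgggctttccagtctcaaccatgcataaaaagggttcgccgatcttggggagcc
CXCL2: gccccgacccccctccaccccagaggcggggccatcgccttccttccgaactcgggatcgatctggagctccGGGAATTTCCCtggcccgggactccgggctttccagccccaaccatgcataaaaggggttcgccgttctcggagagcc

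The stretches of CXCL1, CXCL2 and CXCL3 were 86.3 to 88.8% identical to one another in global alignments. Those of CXCL5 and CXCL6 were 89.4% identical, and that of CXCL8 was 44.0 to 50.9% identical to the others. Counted back from the start, with -1 as the base just before it, the κB match lay at -79 to -69 in CXCL1 and CXCL3, at -78 to -68 in CXCL2, at -91 to -81 in CXCL5 and at -90 to -80 in CXCL6. Each is a pair of overlapping matches. The window of CXCL8 held no match in the form searched, and it had the AP-1 letters at -137 to -131 and the TATA box at -31 to -26. In that form a match must begin with GGG and end with CC, read on either strand. The CXCL8 stretch holds the similar letters ggaatttcc, flanked by t on both sides and so not counted. The lack of a match therefore does not show that CXCL8 has no κB element. How reads that fit several such copies were placed is not given in the sources used here, and its effect on hotspots at these starts was not tested.

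Hotspots fell on these near-identical starts differently in the lines. At CXCL2, Saos-2 had a pair of hotspots of 59 and 140 bp with a significance of 1.61 and 2.43, which covered 78 of the 150 bases and 7 bases of the κB match at -78 to -69. U2OS had none there. At CXCL3 the order was opposite: a U2OS hotspot of 183 bp with a significance of 2.13 covered 136 of the 150 bases with the whole κB match, and Saos-2 had none. These 3 hotspots rank low in their lists, at percentiles 4.01, 24.2 and 14.9 of significance. No hotspot lay within 1 kb of the starts of CXCL1, CXCL5 and CXCL6 in either line.

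CXCL8, which encodes interleukin-8, had a start hotspot in both lines. In Saos-2 it was 154 bp wide with a significance of 2.5 and covered 15 of the 150 bases shown. In U2OS it was 425 bp wide with a significance of 10.39 and covered all 150, including the AP-1 and TATA letters. A second hotspot 14.2 kb before the start was also shared, at 8.12 in Saos-2 and 15.96 in U2OS. Over the whole window CXCL8 had 439 covered bp in Saos-2 and 886 in U2OS, 2.02-fold and just past the 2-fold rule. With lists of equal length, U2OS had 728 bp and the gene was no longer past it.

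Across the cluster and 20 kb on each side, a stretch of 399 kb, the lines were much alike in number. Saos-2 had 11 hotspots with 3065 covered bp and U2OS 12 with 3788 bp, or 2.76 and 3.01 per 100 kb. The U2OS to Saos-2 ratio of covered bases was 1.24, close to the 1.25 of the whole lists. In each line 5 of the hotspots overlapped one of the other line, and these 5 shared places included the strongest sites. One lay between CXCL1 and PF4, 45.8 kb past CXCL1, and was the strongest of the cluster in Saos-2 with a significance of 31.88 (chr4:73917058-73917616), against 17.29 in U2OS. Another lay 10.1 kb before CXCL2, with 812 bp and 11.56 in Saos-2 and 1177 bp and 18.20 in U2OS, the strongest of the cluster in that line.

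The hotspots without a partner had a significance of at most 6.37 and lay in different gaps of the cluster. The Saos-2 one near CXCL1, 14.0 kb past its start, had a significance of 4.75 and made up all 242 bp of that gene's window, where U2OS had none. CXCL6 had 195 bp in Saos-2 against 81 bp in U2OS, from hotspots 18.1 and 19.6 kb before its start. CXCL5 had 1 U2OS hotspot of 287 bp, 6.84 kb before the start, and none in Saos-2. CXCL3 had 262 bp in U2OS and none in Saos-2, while CXCL2 had 1289 bp in Saos-2 against 1420 bp in U2OS. Taken as loci, the joined windows of CXCL5 and CXCL3 held 549 bp in U2OS and none in Saos-2, and those of CXCL6 and CXCL1 held 437 bp in Saos-2 against 81 bp in U2OS. With lists of equal length CXCL5 kept its 287 bp in U2OS and CXCL3 had none, so this locus was then under the 500 bp minimum of the rule.

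**Figure D4:**
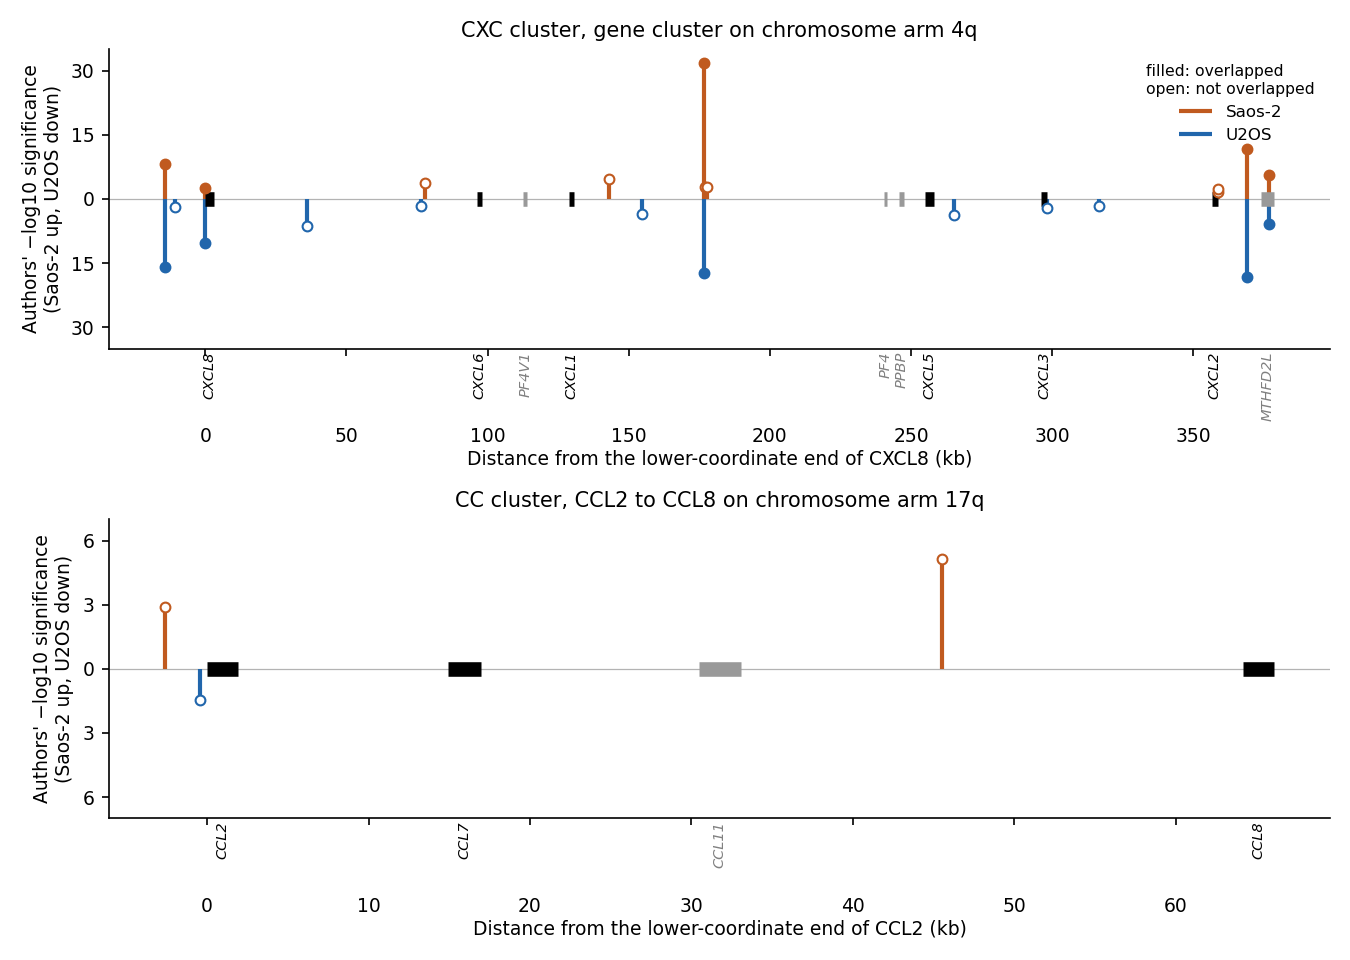
Hotspots of the CXC cluster (top) and the CC cluster (bottom) by distance in kb from the lower-coordinate end of the first gene (x axis) and by the authors' −log10 significance (y axis), with Saos-2 upward and U2OS downward. Filled circles overlap a hotspot of the other line, open circles do not, and bars on the zero line are genes, black for members; the tallest shared pair lies between CXCL1 and PF4 at 31.88 and 17.29, and the CC cluster holds 3 hotspots, none overlapped.

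The members in the CC cluster on chromosome 17, CCL2, CCL7 and CCL8, encode attractants of monocytes. CCL11, which is no member, lies between CCL7 and CCL8. The cluster was nearly empty in both lines. Over 106 kb, Saos-2 had 2 hotspots with 429 covered bp and U2OS 1 with 88 bp, and none overlapped. At CCL2, the main monocyte attractant of the group, Saos-2 had a hotspot of 193 bp lying 2.54 kb from the gene with a significance of 2.87, and U2OS had 1 of 88 bp lying 0.409 kb from the gene with 1.44. The window of CCL7 holds these same hotspots and no other. CCL8 had 1 Saos-2 hotspot of 236 bp, 18.5 kb before the start, with a significance of 5.12, and none in U2OS. The gene nearest to that hotspot was CCL11, 12.3 kb away.

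Of the other CC chemokines, CCL5 had no hotspot in either line, CCL26 had hotspots in U2OS and CCL20 had hotspots in both lines. CCL26, eotaxin-3 (gene 10344, chr7:75769524-75791597), attracts eosinophils and had no Saos-2 hotspot, against 4 in U2OS with 1120 covered bp. Of these, 3 lay inside the gene span and the fourth lay across its end, so that 890 bp were within the span. The strongest had a significance of 11.77 at 17.2 kb past the first start. In the 1 Mb on each side of that window the lines had 65 Saos-2 and 57 U2OS hotspots, so the lack of Saos-2 hotspots did not extend to the surroundings. CCL20, which attracts CCR6-bearing lymphocytes, had 936 bp in Saos-2 against 1467 bp in U2OS. Its strongest site, 0.456 kb beyond the gene's far end, was shared and reached 24.58 in Saos-2 and 29.53 in U2OS.

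Among the remaining CXC chemokines, CXCL12, which holds blood stem cells in the marrow, had no hotspot in Saos-2 and a single U2OS one of 52 bp with a value of 1.47. CXCL14 had a start hotspot in both lines, 77 bp with 1.42 in Saos-2 and 252 bp with 7.57 in U2OS, within 1 kb of the start of its neighbour SLC25A48 as well. CXCL16, which exists as a membrane-bound form, had 757 bp in Saos-2 against 1048 bp in U2OS. The strong site in its window lies at the start of the adjacent gene MED11, with 21.12 in Saos-2 and 19.50 in U2OS. Without hotspots at starts of other genes, CXCL16 had none left in Saos-2 against 324 bp in U2OS.

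The NF-κB subunits all had hotspots in both lines. NFKB1, which encodes the p105 precursor of p50 (gene 4790, chr4:102501359-102617302), had the largest difference of any member, with 11 hotspots and 3297 bp in Saos-2 against 5 and 1233 bp in U2OS, 2.67-fold. Of the Saos-2 hotspots 4 overlapped U2OS ones and 7 did not. The 7 comprised 5 inside the gene, between 33.5 and 72.5 kb past the last annotated start, and 2 just beyond its far end. The strongest site of both lines was shared and lay 3.33 kb past that end, with 15.74 in Saos-2 and 8.44 in U2OS. Of the 2 Saos-2 hotspots just beyond the far end, the one of 7.04 nearly abuts this shared site. With hotspots under 150 bp apart merged, it is part of that site. At the start, significance reached 6.97 in Saos-2 and 2.01 in U2OS.

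RELA, the main activating subunit (gene 5970, chr11:65653601-65663857), went the other way, with 192 bp in Saos-2 against 1294 bp in U2OS, 6.74-fold. U2OS had a start hotspot of 389 bp with a significance of 3.14 and a stronger one, 8.14, that lay 0.444 kb beyond the far end of the gene. Neither overlapped a Saos-2 hotspot, and both Saos-2 hotspots of the window lay near the start of SIPA1. In the 1 Mb on each side U2OS was also richer, with 140 hotspots against 104.

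The other 3 subunits kept a start hotspot in both lines and were not past the 2-fold rule. NFKB2, the p100 precursor of p52, had 818 bp in Saos-2 against 1438 bp in U2OS, and its start reached 2.95 and 9.67. REL, which is best known in lymphocytes, had a single hotspot in each line, of 545 bp with 8.67 in Saos-2 and of 334 bp with 5.97 in U2OS. RELB, the partner of p52, had 747 bp and 1191 bp, with 9.70 and 12.34 at a gene end. At the starts, the significance was thus higher in Saos-2 for NFKB1 and REL, and higher in U2OS for NFKB2 and RELB.

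The inhibitors and feedback genes split between the lines. NFKBIZ, a nuclear IκB protein that is itself induced by NF-κB signals, had 110 bp in Saos-2 against 1415 bp in U2OS, 12.9-fold. A site inside the gene was shared but weak in Saos-2, with 2.01 against 27.18 in U2OS. U2OS also had hotspots at annotated starts, with 3.81 at the first start and 14.77 at a later one, and Saos-2 had neither. The surroundings of NFKBIZ were also richer in U2OS, with 53 against 20 hotspots in the 1 Mb on each side. BIRC3, an antiapoptotic ubiquitin ligase that is a known NF-κB target (chr11:102317484-102339403), had 126 bp in Saos-2 against 1490 bp in U2OS, 11.8-fold. Its window holds a pair of κB matches, and the one at -199 to -190, before the bases shown, lay in no hotspot. The promoter is shown because a hotspot covered the other match in U2OS and not in Saos-2. The 150 bases before the start lie at chr11:102317334-102317483 on the plus strand, with that match in capitals.
BIRC3: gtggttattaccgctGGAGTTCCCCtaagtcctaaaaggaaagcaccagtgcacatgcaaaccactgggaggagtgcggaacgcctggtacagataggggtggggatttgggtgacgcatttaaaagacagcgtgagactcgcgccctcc

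The U2OS start hotspot covered 128 of these 150 bases and the κB match at -135 to -126, with a low significance of 2.07. The strongest U2OS hotspot of the window, 12.70, lies at the start of the neighbouring gene BIRC2, which is also called for U2OS below. Without hotspots at starts of other genes BIRC3 had 126 bp in Saos-2 against 848 bp in U2OS, still past the 2-fold rule.

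NFKBIA, the classical IκBα that ends an NF-κB response (chr14:35401513-35404749), had 864 bp in Saos-2 against 199 bp in U2OS, 4.34-fold. Its strongest Saos-2 site lay 15.6 kb beyond the gene with a significance of 5.34 and had no U2OS partner. Inside the gene, 0.624 kb past the start, both lines had a hotspot, of 2.40 in Saos-2 and 1.46 in U2OS. TNFAIP2, a TNF-induced gene (chr14:103121469-103137439), had 1691 bp in Saos-2 against 840 bp in U2OS, 2.01-fold. Its strongest Saos-2 site, of 827 bp with 19.41, lay 11.0 kb from the gene within EXOC3L4 and overlapped a U2OS hotspot of 3.37. Within 10 kb of the gene the order of TNFAIP2 was reversed, with 82 bp more in U2OS.

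Of the remaining inhibitors, 1 was past the rule. NFKBIE, IκBε, had 315 bp in Saos-2 against 1009 bp in U2OS, 3.20-fold. Its strongest hotspots lay at the start of HSP90AB1, and without hotspots at starts of other genes it had 114 and 446 bp, under the 500 bp minimum of the rule. NFKBIB, IκBβ, had 1 hotspot in each line, of 792 bp with 35.05 in Saos-2 and 815 bp with 61.65 in U2OS. That start is shared head to head with SIRT2. TNFAIP3, which encodes the deubiquitinase A20, had 618 and 646 bp, and its start hotspot reached 11.84 in Saos-2 and 6.69 in U2OS.

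**Figure D5:**
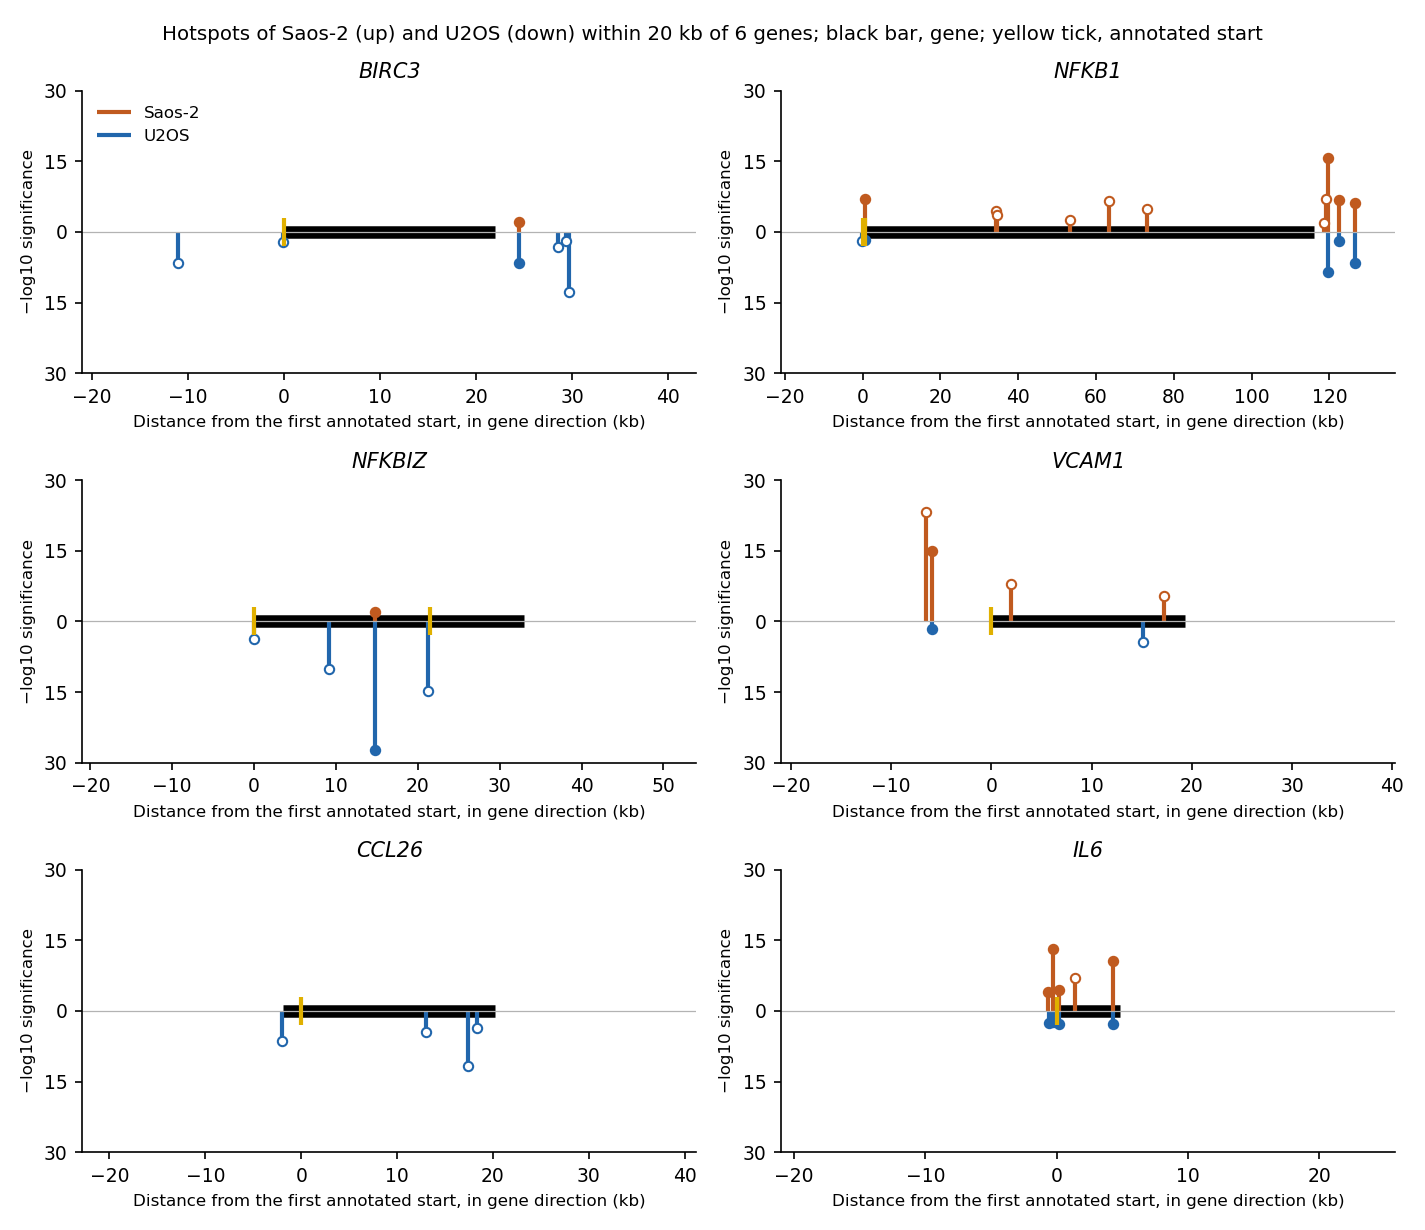
Hotspots within 20 kb of 6 genes, by distance in kb from the first annotated start in the direction of the gene (x axis) and by −log10 significance (y axis), with Saos-2 upward and U2OS downward; filled circles overlap a hotspot of the other line. BIRC3, NFKBIZ and CCL26 have most hotspots in U2OS, whereas NFKB1, VCAM1 and IL6 have the higher values in Saos-2.

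TNF, LTA and LTB are 3 TNF family ligands that lie side by side on chromosome 6 and share hotspots, so they are 1 locus. None had a hotspot within 1 kb of its start in either line. TNF had 532 bp in Saos-2 against 179 bp in U2OS, 2.97-fold, all from places outside the gene, of which the strongest in Saos-2 reached 3.36. Within 50 kb its order was reversed, with 424 bp more in U2OS. LTB had 445 and 105 bp. LTA had 1675 bp in Saos-2 against 1812 bp in U2OS, most of it at the starts of DDX39B and of ATP6V1G2 and NFKBIL1. Over the whole locus of 61.8 kb the ratio of U2OS to Saos-2 was 1.08.

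In the interleukin-1 family, 5 of 6 genes had more covered bases in U2OS, as did 56.5% of all genes. The 1 Mb on each side was also richer in U2OS at each gene. Hotspots there numbered 78 in U2OS against 35 in Saos-2 for IL1A, 82 against 37 for IL1B and 73 against 37 for IL1RN. For IL1R1 they were 57 against 37, for IL18 71 against 44 and for IL33 37 against 32. IL1A, IL1B and IL1RN lie near one another on chromosome 2 and share most of these surroundings, so they are not separate cases. IL18, whose product is released by inflammasome cleavage (chr11:112143260-112164094), had 933 bp in Saos-2 against 2011 bp in U2OS, 2.16-fold. The Saos-2 hotspots, all 3, overlapped U2OS ones. The strongest lay inside the gene and reached 34.32 in Saos-2 and 47.51 in U2OS, at percentiles 99.1 and 99.4 of their lists. A further U2OS hotspot of 12.79 lay 2.47 kb beyond the gene and had no partner.

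IL1R1, the signalling receptor of interleukin-1 (chr2:102070390-102179874), had 1367 bp in Saos-2 against 2254 bp in U2OS. U2OS had a hotspot of 502 bp with 7.31 at one of its annotated starts, where Saos-2 had none, and the strongest site, 13.92 in U2OS and 4.50 in Saos-2, was shared and lay 5.88 kb outside the gene. IL1RN, the receptor antagonist, had 235 bp in Saos-2 against 762 bp in U2OS, made up of hotspots of at most 4.66. With lists of equal length it had 235 and 276 bp and was not past the rule. In the top 50% of each list its order was reversed, with 6 bp more in Saos-2. IL1A, which encodes interleukin-1α, had 416 against 926 bp. Its strongest site lies at the start of CKAP2L, with 9.44 in Saos-2 and 24.05 in U2OS. Without that site IL1A had none in Saos-2 against 384 bp in U2OS, under the 500 bp minimum of the rule. IL1B had none in Saos-2 against 151 bp in U2OS, and IL33 had 91 bp in Saos-2 and none in U2OS.

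The interleukin-6 family and its receptors all had hotspots in both lines. IL6, a cytokine of inflammation and bone turnover (chr7:22727200-22731998), had 5 hotspots with 1597 bp in Saos-2 and 4 with 678 bp in U2OS, 2.36-fold. Every U2OS hotspot overlapped a Saos-2 one, and 1 Saos-2 hotspot inside the gene, of 7.01, had no partner. Near the start the highest significance was 13.16 in Saos-2 and 2.67 in U2OS, and 4.11 kb past it 10.59 and 2.86. The promoter of IL6 is shown because its κB match lies between hotspots. The 150 bases before the start are at chr7:22727050-22727199 on the plus strand.
IL6: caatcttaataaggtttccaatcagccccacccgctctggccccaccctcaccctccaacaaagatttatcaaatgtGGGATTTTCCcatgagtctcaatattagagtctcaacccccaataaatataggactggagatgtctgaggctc

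The capitals mark the κB match at -73 to -64, which lay outside the hotspots of both lines, although Saos-2 hotspots covered 69 of these 150 bases and U2OS hotspots none. IL6R, the ligand-binding receptor chain, had 2175 bp in Saos-2 against 3033 bp in U2OS. All 8 of its Saos-2 hotspots overlapped U2OS ones, and its start had 4.76 and 4.60. IL6ST, the shared signalling chain gp130, had 550 and 1102 bp, just past the 2-fold rule, and with lists of equal length it had 550 and 914 bp and was not past it. At its start the hotspot reached 4.90 in Saos-2 and 25.96 in U2OS.

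LIF, an interleukin-6 family cytokine named for leukaemia inhibition, had 617 bp in Saos-2 against 1560 bp in U2OS, 2.53-fold. The strongest U2OS site, of 656 bp with 23.74, lay 4.16 kb outside the gene and overlapped a Saos-2 hotspot of 2.21. U2OS had 5 further hotspots there without a partner, of at most 7.26. IL11, a cytokine that promotes osteoclast formation, had 1141 bp in Saos-2 against 688 bp in U2OS. The strongest sites of both lines lie at the start of RPL28. Without these, IL11 had 594 bp in Saos-2, from hotspots 2.26 and 3.77 kb before its start, and 59 bp in U2OS, from the weak hotspot near the start, and it was then past the rule for Saos-2.

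Of the other interleukins, IL7, a lymphocyte growth factor, had 678 bp in Saos-2 against 603 bp in U2OS. Its strongest site, 8.82 and 13.93, was shared and lay within ZC2HC1A, and U2OS had a further hotspot of 3.13 at a gene end. IL15, which sustains natural killer cells, had 505 and 883 bp, with the shared site inside the gene at 5.97 in Saos-2 and 14.87 in U2OS. IL32 had 268 and 594 bp, 2.22-fold. U2OS had a hotspot of 204 bp with 4.32 at its first start, where Saos-2 had none. The other part of its difference lay at the start of a neighbour, and without that part IL32 had none in Saos-2 against 204 bp in U2OS.

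The effector genes include adhesion molecules and enzymes of inflammation. VCAM1, an adhesion molecule for leukocytes (chr1:100719742-100739045), had 4 hotspots with 1533 bp in Saos-2 and 2 with 368 bp in U2OS, 4.17-fold. The strongest Saos-2 hotspot, 23.29 at 6.26 kb before the start, did not itself overlap a U2OS one. The next Saos-2 hotspot, 14.89, nearly abuts it and overlapped a U2OS hotspot of 1.69. With hotspots under 150 bp apart merged, these Saos-2 hotspots are 1 site with a U2OS partner. Neither line had a hotspot at the start. PTGS2, the inducible cyclooxygenase, had a single hotspot in each line, at the start, with 68 bp and 1.53 in Saos-2 and 554 bp and 6.32 in U2OS, 8.15-fold. The promoters of these 2 genes are shown for this contrast, at chr1:100719592-100719741 on the plus strand and chr1:186680424-186680573 on the minus strand. Capitals mark the κB match and the TATA box in VCAM1 and the TATA box in PTGS2.
VCAM1: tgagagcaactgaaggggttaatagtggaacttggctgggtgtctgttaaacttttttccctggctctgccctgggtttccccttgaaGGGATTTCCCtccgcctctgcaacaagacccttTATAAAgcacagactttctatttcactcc
PTGS2: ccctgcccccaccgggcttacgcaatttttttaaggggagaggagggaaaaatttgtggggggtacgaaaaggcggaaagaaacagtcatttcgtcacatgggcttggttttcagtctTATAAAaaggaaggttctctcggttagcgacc

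In VCAM1 no hotspot of either line touched these 150 bases, with the κB match at -62 to -53 and the TATA box at -29 to -24. In PTGS2 the Saos-2 hotspot covered 64 of them and the U2OS hotspot all 150, and both covered the TATA box at -32 to -27. ICAM1, another leukocyte adhesion molecule, had 530 bp in Saos-2 against 341 bp in U2OS, and every hotspot of its window lay at the start of MRPL4, 18.9 to 19.0 kb before the start of ICAM1. TNFAIP6, a hyaluronan-binding protein, had none in Saos-2 against 373 bp in U2OS, none of it within 1 kb of the start.

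The κB, AP-1 and TATA letters were counted in all RefSeq promoter windows of 300 bases, from 250 before the start to 50 from the start on. The κB consensus of 10 letters and AP-1 were searched on both strands and the TATA box on the gene's strand; a match is a description of the letters and not a site. A κB match was present in 24 of the members' 56 windows (42.9%), which belong to 21 of the 40 genes with sequence, and in 12.7% of all 22199 windows. AP-1 letters were in 17.9% of the members' windows and 6.15% of all, and a TATA box in 21.4% and 6.48%. Of the members' windows with a hotspot of either line, 13 of 22 (59.1%) held a κB match, against 11 of 34 (32.4%) of those without a hotspot. A gene was counted as covered when at least 1 base of a match lay in a hotspot. Matches were covered by hotspots of both lines in 5 genes, namely IL6ST, NFKB2, NFKBIB, REL and TNFAIP3. They were covered in U2OS and not Saos-2 in 5, namely BIRC3, CXCL3, IL32, NFKB1 and NFKBIZ, in Saos-2 and not U2OS in CXCL2, where 7 of the 10 bases lay in a hotspot, and in neither line in 10. Some of the covering hotspots were weak, with 2.07 at BIRC3, 2.13 at CXCL3 and 2.01 at NFKB1 in U2OS, and 1.61 at CXCL2 in Saos-2. With lists of equal length, BIRC3, CXCL3 and NFKB1 had no U2OS hotspot at the start, whereas IL32 and NFKBIZ kept theirs and CXCL2 kept its Saos-2 one. The windows of CXCL1, CXCL2 and CXCL3, and of CXCL5 and CXCL6, are near copies and do not count as independent. The split by hotspot and the counts of covered genes were not computed over all genes, so they have no background. A hotspot within 1 kb of the start was in U2OS and not Saos-2 at 10.1% of all genes, and the reverse at 4.79%. Whether κB matches and hotspots go together was not tested.

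Sharing of the members' hotspots was near that of other genes. In Saos-2, 67 of 106 (63.2%, 95% Wilson interval 53.7 to 71.8%) shared at least 1 bp with the U2OS list, against 60.7% of hotspots in the windows of all protein-coding genes. In U2OS, 65 of 133 (48.9%, interval 40.5 to 57.3%) overlapped a Saos-2 hotspot, against 51.1%. In Saos-2, hotspots at a member's start or end were overlapped in 19 of 21 cases (90.5%, interval 71.1 to 97.3%) and those at the start of another gene in 14 of 15 (93.3%, interval 70.2 to 98.8%), against 14 of 34 (41.2%, interval 26.4 to 57.8%) elsewhere inside a member. In U2OS the corresponding counts were 19 of 33 (57.6%, interval 40.8 to 72.8%), 12 of 17 (70.6%, interval 46.9 to 86.7%) and 14 of 31 (45.2%, interval 29.2 to 62.2%). Neither these shares by place nor those by role below were computed over all genes, so they have no background. Whether they are particular to the members was not tested. By role, the groups were small and their shares ran from 25% to 100%. The lowest was that of the CC chemokines in U2OS (2 of 8). The highest were those of the TNF ligands in U2OS (4 of 4) and the other CXC chemokines in Saos-2 (2 of 2). The interleukin-6 group was shared in 18 of 22 Saos-2 hotspots (81.8%, interval 61.5 to 92.7%), and IL6R alone held 8 of these 18. Hotspots of 1 gene are not independent, which the intervals do not allow for. The interleukin-1 group was shared in 7 of 23 U2OS hotspots (30.4%, interval 15.6 to 50.9%), against 18 of 29 (62.1%, interval 44 to 77.3%) for the interleukin-6 group.

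A list of 52 other genes of these pathways gave the context. By the same rule 7 of them (13.5%, background 16.9%) were higher in U2OS, and 2 others (3.85%, background 6.6%) were higher in Saos-2, so neither share exceeded that of all genes. In U2OS they were IKBKB, the catalytic IκB kinase (258 bp in Saos-2, 557 bp in U2OS), the deubiquitinase OTULIN (0 and 999 bp), BIRC2 (126 and 1070 bp), and 4 receptors: CD40 (389 and 1084 bp), TLR2 (65 and 736 bp), TLR4 (0 and 1349 bp) and IL11RA (173 and 2559 bp). In Saos-2 they were the adaptors TRADD (1087 and 484 bp) and TRAF3 (1461 and 0 bp). Among the 14 TNF, Toll-like and cytokine receptors, 12 had more covered bases in U2OS and 2 in Saos-2, where the shares over all genes were 56.5% and 33.9%. Of the 20 kinases and adaptors, 8 had more in U2OS and 12 in Saos-2. None of 11 chemokine receptors was past the rule, and none had a start hotspot in either line. BIRC2 shares hotspots with BIRC3 and is no separate case. Among the 14 TNF, Toll-like and cytokine receptors, the neighbours IL1RL1 and IL18R1 have overlapping windows and identical values. Each had 1 hotspot per line, with a significance of 3.12 for Saos-2 and 7.61 for U2OS, so the same difference was counted for both. The windows of TNFRSF1A and LTBR overlap too, so the 12 receptors with more covered bases in U2OS are not independent.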

How the data were processed

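DNase I hotspots of 1 Saos-2 and 1 U2OS library were used, 1 list per library. The submitters' processing notes name Trimmomatic 0.38, BWA 0.7.15 and hg38; per the file names the build has no alternate contigs and the false discovery rate is 0.05. The hotspot caller, read filters and treatment of duplicates and multiply mapped reads are not given in the sources used here. The deposited −log10 value of each hotspot was taken as its significance, because its minimum is the −log10 of 0.05; no header names it. The deposited score column was about 10 times that value and was not used. Depth per library is unknown, and a deeper library yields more hotspots, so depth and accessibility cannot be told apart.

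Gene spans came from RefSeq (GRCh38.p14), without exons, and starts and promoter sequences from the RefSeq promoter table for 40 of 49 members. Covered bases, overlaps (at least 1 bp), start hotspots (within 1 kb) and Wilson 95% intervals were computed with Python 3.11.15, numpy 2.4.6, pandas 2.3.3 and scipy 1.17.1, promoter identities with Biopython 1.88, and figures with matplotlib 3.10.9; the calling scripts were tested on simulated data. With 1 library per line there was no test. Described in full were the members of the chemokine clusters, the 6 members with the largest difference in covered bases in each direction, those with a start hotspot in 1 line, and for these the most significant hotspots. All members are accounted for. Some cell type markers are not reported here. Members and lists were chosen with earlier results of these data known. Alternatives were other windows, folds, minimums and overlaps, stricter or equal lists, merging of hotspots and removal of hotspots at other genes' starts.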

Additional observations from a re-analysis of the deposited data

How the results depend on the processing

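No paired analysis was possible because each line is 1 library; leaving out a replicate could not be tried either. Of 62 recomputed counts and shares, 41 stayed within 1.5-fold or within the Wilson interval and 21 moved. Members higher in U2OS, 13 in the report, numbered 4 in the gene span without flanks and 7 at 3-fold. Members higher in Saos-2, 6 in the report, numbered 2 within 50 kb, 3 in the gene span without flanks, 2 at 3-fold and 13 with no minimum of covered bases. Shares of overlapped hotspots fell when at least 50% of both hotspots had to overlap, to 39.6% in Saos-2 and 31.6% in U2OS, and the Saos-2 share was 52.7% in the top 50% of each list. Start hotspots in both lines numbered 5 in the top 50%. Those in Saos-2 and not U2OS numbered 3 within 2.5 kb, 3 among the top 50% and 3 when both lists had equal length, and those in U2OS and not Saos-2 numbered 5 with equal lists. In the top 50% the CXC cluster held 5 Saos-2 and 6 U2OS hotspots and the CC cluster 1 and 0. With equal lists the CC cluster held 0 U2OS hotspots, and with 50 kb added on each side it held 2. Related genes higher in Saos-2 numbered 1 within 10 kb.

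Of 114 recomputed differences of single genes, 67 stayed, 44 moved and 3 changed direction, all given as U2OS minus Saos-2: TNFAIP2 at 82 bp within 10 kb, TNF at 424 bp within 50 kb and IL1RN at -6 bp in the top 50%. The removal of hotspots at the starts of other genes was chosen after seeing the data. It left 10 of the 13 U2OS genes past the rule (IL1A, IL32 and NFKBIE were not) and added NFKB2, with a background of 16.3%; all 6 Saos-2 genes stayed and IL11 and LTA were added, with a background of 6.79%. With equal lists CXCL8, IL1RN and IL6ST were no longer past the rule for U2OS and the same 6 genes were past it for Saos-2, with backgrounds of 14.8 and 8.03%. Why these values moved was not tested, except that shorter lists and narrower windows hold fewer hotspots by construction.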
